A study of Mus musculus with 167 samples.

Results

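The 10 genes described here, Fap, Postn, Thbs2, Sparc, Fbn1, Lox, Loxl2, Dcn, Lum and Bgn, encode proteins that fibroblasts secrete into the extracellular matrix or use to remodel it. They were chosen by symbol as a set of fibroblast-activation and small-proteoglycan genes, and each of the 10 matched 1 of the 36118 genes in the count table. They were measured by RNA sequencing in 167 whole tumours of 119 CC-MexTAg mice. Each mouse was the progeny of a male from 1 of 35 Collaborative Cross (CC) strains and a MexTAg female, and all of them received 2 intraperitoneal injections of 3 mg of Wittenoom crocidolite, a blue asbestos, a month apart. The labels split the mice into 36 below and 83 above the median survival. Of the 35 strains, 13 held mice of both classes, 6 only mice below and 16 only mice above the median. The CC053 strain, to which the description returns, gave 6 mice with 10 tumours, 2 mice below and 4 above the median. The MexTAg transgene, which every mouse carried, expresses the simian virus large T antigen from the mesothelin promoter, so that it is active mainly in mesothelial cells. A strain name stands for a cross with the same MexTAg parent line, not for the inbred CC strain itself, and the strain LOX is not to be confused with the gene Lox.

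In a wound or a tumour, fibroblasts that are activated by cues such as transforming growth factor beta take on a contractile and matrix-producing state. They lay down fibrillar collagen, and a group of accessory proteins decides how that collagen is spaced, cross-linked and turned over. Fap is a serine protease on the surface of activated fibroblasts. Postn (periostin), Thbs2 (thrombospondin 2) and Sparc (osteonectin) are matricellular proteins, which signal to cells and bind collagen more than they bear load. Fbn1 (fibrillin 1) forms the microfibrils of elastic fibres and holds latent transforming growth factor beta. The gene Lox and its relative Loxl2 encode copper-dependent oxidases that cross-link collagen and elastin. Dcn (decorin), Lum (lumican) and Bgn (biglycan) are small leucine-rich proteoglycans that bind collagen fibrils and limit or order their growth. Mesothelial cells can themselves turn on matrix genes, so in a whole mesothelioma none of the 10 transcripts belongs to fibroblasts alone.

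The libraries held 11138491 to 35399287 estimated counts (median 22539831), and levels are given as CPM (counts scaled to a common library total, with adjusted library sizes), with the counts of all tumours of a mouse summed. Fibroblast markers were present in every mouse: Col1a1 ranged from 102.2 to 34911 CPM and Pdgfra from 12.1 to 2677 CPM. Mesothelial keratins were detected in every mouse too (Krt8, lowest value 1.96 CPM), whereas Msln was under 1 CPM in 1 mouse and the median of Calb2 was 0.071 CPM. In 22 libraries a list of genes of another tissue took more than 1% of the counts. In 23 libraries, from 14 mice of 6 strains, there were at least 400 CPM of Ptprc, the pan-leukocyte gene that encodes CD45 (median over all libraries 103.03 CPM). Of these leukocyte-rich libraries 7 came from CC053 and 11 from CC044, so the levels in CC053 and the comparisons by strain and by survival are also given without them; the order of the genes, the balance and the spreads are given with all libraries. All samples were whole tumours, in which fewer cells of a type and less RNA per cell cannot be told apart.

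Bgn and Sparc were the most abundant of the 10 transcripts and Fap the least. Bgn had 231, 2961 and 11512 CPM as its lowest, median and highest value among the 119 mice. Sparc had 175, 2229 and 10754 CPM, and Dcn had 65.2, 973 and 10263 CPM. Fap had 0.940, 19.03 and 86.5 CPM, and was under 1 CPM in 1 mouse. The other members had medians between 232 CPM (Lum) and 782 CPM (Postn). Divided by the length of the longest coding transcript, the order of the median levels was Bgn, Sparc, Dcn, Postn, Lox, Lum, Thbs2, Loxl2, Fbn1 and Fap, at 1224, 969, 554, 244, 104.5, 94.9, 85.35, 72.4, 32.4 and 6.92 CPM per kilobase. Bgn and Sparc, and Thbs2 and Loxl2, changed places when the median transcript length was used instead. The SD of a member among the 119 mice was 1.11 to 2.11 log2 units, and of the steps between neighbours in that order the one between Fbn1 and Fap was wider than the spread of both.

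Postn and Lum spanned the widest ranges, 10.7 and 10.6 log2 units between the lowest and the highest mouse, and Bgn the narrowest, 5.64. Postn was lowest in the mouse LOX-E4, at 9.996 CPM, and highest in GIT-G2, at 16765 CPM. LOX-E4 was the lowest of all 119 mice for 8 of the 10 genes. Fap, at 1.496 CPM there, was lower still in LOX-F4, and Loxl2 was lowest in CC044-J3. The single tumour of LOX-E4 had 1334 CPM of Ptprc and 607 CPM summed over 12 T cell genes, against medians over all libraries of 103.03 and 29.2 CPM. The part of the leukocyte RNA in these low values was not tested.

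The positions of the genes other than Lox are given on GRCm38 from the GENCODE M21 annotation. Dcn, at chr10:97479609-97518143, and Lum, at chr10:97565128-97572703, lie on the same strand with a gap of 46984 bases between them, in the cluster of small leucine-rich proteoglycan genes that also holds Kera and Epyc. Fap (chr2:62500943-62574075) and Fbn1 (chr2:125300594-125507993) share chromosome 2. Postn lies at chr3:54361109-54391037, Sparc at chr11:55394500-55423183, Loxl2 at chr14:69609068-69695834, Thbs2 at chr17:14665500-14694235 and Bgn at chrX:73483602-73495933.

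Promoter sequence from RefSeq on GRCm38.p6 was at hand for 5 of the 10 genes: Postn, Fbn1, Sparc, Thbs2 and Bgn. For Postn, Thbs2 and Bgn the start of the RefSeq entry lay within 27 bases of the start of the GENCODE gene, and the 150 bases before it are shown because the levels of these 3 genes were correlated across mice while their promoter letters differ. Capitals mark the TATA-box letters TATAAA, the CCAAT box CCAAT and the GC box GGGCGG, each searched on both strands.
Postn, chr3:54360957-54361106, plus strand: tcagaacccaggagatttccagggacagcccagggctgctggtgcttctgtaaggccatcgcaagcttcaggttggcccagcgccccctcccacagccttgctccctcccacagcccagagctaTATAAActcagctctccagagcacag
Thbs2, chr17:14694263-14694412, minus strand: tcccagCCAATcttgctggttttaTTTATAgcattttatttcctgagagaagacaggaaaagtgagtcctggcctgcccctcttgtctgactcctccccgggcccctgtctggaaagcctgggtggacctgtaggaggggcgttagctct
Bgn, chrX:73483451-73483600, plus strand: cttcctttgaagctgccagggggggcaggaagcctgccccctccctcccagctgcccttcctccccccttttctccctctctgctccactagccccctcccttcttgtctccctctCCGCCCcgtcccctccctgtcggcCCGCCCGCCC
TATAAA was present once for Postn, close to the start, and once on the opposite strand for Thbs2, far from it; 7.57% of all 32851 promoters held it in the same window. CCAAT, found in 24.5% of promoters, was present for Thbs2 only. GGGCGG, found in 28.6%, was present for Bgn only, 3 times on the opposite strand with 2 of the copies overlapping. A match of letters is a description and shows no binding.

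CC053 tumours had low levels of 9 of the 10 genes, and this was known when the genes were chosen, so their values are described without a test. Lum had the largest fold change. It had 43.7, 20.6, 23.4, 38.1, 84.5 and 15.4 CPM in the 6 CC053 mice (A1, A4, B1, F1, G3 and H1), against 1.98, 269 and 3197 CPM as the lowest, median and highest among the mice of other strains. All 6 CC053 mice lay below the median of the others, and 28 other mice lay below the highest CC053 mouse.

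Fap, the protease of activated fibroblasts, had 2.60, 4.36 and 15.7 CPM (lowest, median, highest) in CC053, against 0.940, 19.7 and 86.5 CPM in the other strains. Postn had 90.6, 171 and 943 CPM in CC053, against 9.996, 841 and 16765 CPM in the others. For Fap all 6 CC053 mice, and for Postn 5 of the 6, were below the median of the other mice. Bgn, at 497, 958 and 1332 CPM in CC053 against 231, 3064 and 11512 CPM in the others, overlapped least, since 21 other mice lay below its highest CC053 mouse; for Lum it was 28 and for the remaining members 39 or more.

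Dcn was the member that did not follow. It had 492.6, 2495, 1489.6, 386.2, 500.02 and 315.4 CPM in A1, A4, B1, F1, G3 and H1, against 65.2, 987 and 10263 CPM in the other strains. Only 4 of the 6 CC053 mice lay below the median of the others, and 97 other mice lay below its highest CC053 mouse. Among the 25 strains with at least 3 mice CC053 had the lowest mean log2 CPM for the other 9 genes and the 7th lowest for Dcn. By median CPM CC053 was lowest for Fap, Lum and Thbs2 only: Postn, for example, had a median of 171 CPM in CC053 and 148.9 CPM in CC044, and CC044 was also below CC053 for Fbn1, Sparc, Lox, Loxl2 and Bgn.

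Expressed as a log2 fold change of CC053 over all other mice with its standard error, Lum was at -3.60 ± 0.99, Postn at -2.98 ± 1.02, Thbs2 at -2.41 ± 0.80 and Loxl2 at -2.12 ± 0.69. Fap was at -1.94 ± 0.58, Bgn at -1.78 ± 0.47, Lox at -1.71 ± 0.66, Fbn1 at -1.71 ± 0.55, Sparc at -1.60 ± 0.53 and Dcn at -0.63 ± 0.60. In the fit over all genes 8.72% of the 19748 genes tested were past an adjusted p of 0.05 (3.40% lower and 5.32% higher in CC053). The median log2 fold change of all genes was -0.16. The members' own p-values are not given, because their low levels helped to choose them. Without each CC053 mouse in turn the Lum fold change stayed between -4.02 and -3.44 and that of Postn between -3.88 and -2.79.

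**Figure D1:**
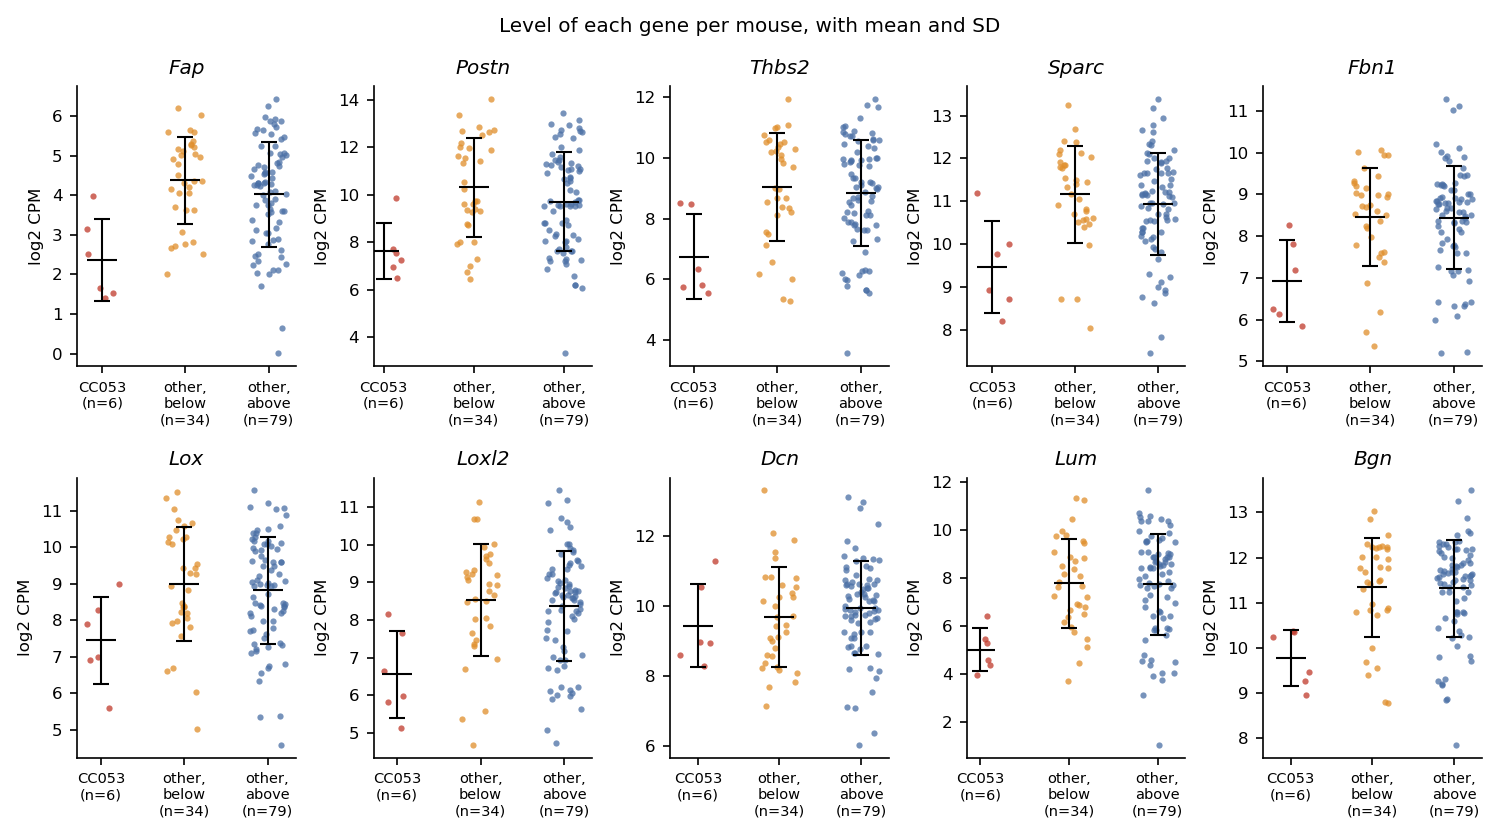
Level of each gene (log2 CPM, 1 point per mouse) in the 6 CC053 mice, the 34 below-median and the 79 above-median mice of other strains; the bars show mean and SD. The CC053 points lie within the range of the others for every gene, in its lower part for Lum, Bgn and Fap and less so for Dcn. The classes of the other strains overlap throughout.

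The low levels in CC053 came with more lymphocyte RNA. Summed over 14 genes of B and plasma cells, CC053 mice had 322, 2926 and 3812 CPM (lowest, median, highest), against 146.9, 400.1 and 4328 CPM in the other strains, and 13 of the 14 had a higher median in CC053. Summed over 12 T cell genes they had 28.5, 331 and 1304 CPM, against 4.05, 28.1 and 1250 CPM, with a higher median for all 12. Ms4a1, a B cell surface gene, had a median of 376 CPM in CC053 and 3.20 CPM in the others. Smooth muscle genes summed to 213, 236 and 567.9 CPM in CC053, against 78.004, 540.3 and 12099.6 CPM, and mesothelial genes to 69.3, 329.7 and 4677 CPM, against 15.4, 620.3 and 6660.3 CPM; 8 of 10 smooth muscle genes had a lower and 13 of 15 mesothelial genes a higher median in CC053. Endothelial genes summed to a median of 293 CPM in CC053 and 492 CPM in the others, with a lower median for 12 of 12, and macrophage genes to 1176 CPM in CC053 and 1722 CPM in the others, with a lower median for 11 of 12. All 7 erythroid genes had a higher median in CC053. The part of these cells in the low values was not tested.

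In the leukocyte-rich libraries the medians of all 10 genes were lower than in the other libraries of the same kind of strain, except for Lum within CC053. Postn had a median of 142 CPM in the 7 such libraries of CC053 and 113.9 CPM in the 16 of other strains, and Lum had 40.1 and 27.5 CPM. The remaining libraries separate the members. Lum had 20.8, 23.8 and 49.7 CPM in the 3 other CC053 libraries, each from a different mouse, against 6.56, 336 and 3239 CPM in the 141 other libraries of other strains. Fap had 2.85, 5.71 and 13.1 CPM in those 3, against a median of 19.9 CPM. Sparc, at 1038, 1643 and 2367 CPM against a median of 2404 CPM, and Lox, at 243, 314 and 1047 CPM against 625.4 CPM, came much closer. Dcn had 784, 1515 and 2517 CPM, against 1121 CPM, and so was on the high side.

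Over mice, with all libraries, the difference in mean log2 CPM between CC053 and the others was -2.73 for Lum, -2.24 for Postn and -1.76 for Fap. It was -1.43 for Lox and -0.44 for Dcn, and it is another measure than the fold change given above. With the leukocyte-rich libraries left out and 3 CC053 mice remaining, it was -3.09 for Lum, -1.85 for Postn and -1.66 for Fap. For Lox it was -0.35 and for Dcn 0.50. CC053 was then still the lowest of 24 strains for Lum, Postn and Fap, the 7th lowest for Lox and the 19th lowest for Dcn. The library of CC053-B1 shows the contrast in 1 tumour, with 2367 CPM of Sparc and 1515 CPM of Dcn beside 2.85 CPM of Fap, 23.8 CPM of Lum and 92.2 CPM of Postn, at 103.5 CPM of Ptprc. With 3 mice left in CC053 these values rest on few animals.

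Other matrix genes were low in CC053 as well. The lists and the comparison of CC053 were chosen with earlier results of these data known. The calls and adjusted p of the list genes, here and in the next paragraph, are therefore a description and no independent test. In 6 lists of collagens, other proteoglycans, collagen-processing enzymes, elastic fibre and matricellular proteins, fibroblast markers and the transforming growth factor beta pathway, 26 genes were lower and none was higher past the threshold in edgeR's quasi-likelihood test, beside 3.40% lower among all genes. The strongest of each list by p were Col6a3 (log2 fold change -2.61 ± 0.70, adjusted p = 0.0102), Adamts2, which trims procollagen (-2.08 ± 0.56, adjusted p = 0.0106), Fbln1, a fibulin (-2.64 ± 0.77, adjusted p = 0.0198), Prrx1, a mesenchymal transcription factor (-2.07 ± 0.61, adjusted p = 0.0198), Tgfbr2, a receptor of the growth factor (-0.96 ± 0.29, adjusted p = 0.0226), and Podn (-2.39 ± 0.77, adjusted p = 0.0350). All 15 collagen and fibronectin genes had a negative fold change, and 6 of them passed. Of the others 2 of 12 proteoglycans, 7 of 20 processing genes, 6 of 22 elastic fibre and matricellular genes, 4 of 20 fibroblast markers and 1 of 18 pathway genes passed. By median not every fibroblast marker was low, since 4 of the 20 were higher in CC053. Dpp4, a surface peptidase, was at 23.01 CPM against 7.13 CPM in the others, and Wnt2 at 8.98 CPM against 2.69 CPM. Clec3b was at 5.34 CPM against 2.52 CPM, and Tcf21 at 0.325 CPM against 0.324 CPM. None of the 4 passed as higher, and 19 of the 20 markers had a negative fold change.

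Of the second-ranked genes of the lists, Loxl3, another lysyl oxidase, was at -2.34 ± 0.64 (adjusted p = 0.0117), Col1a1 at -2.49 ± 0.74 (adjusted p = 0.0212), Mfap2, a microfibril protein, at -3.52 ± 1.05 (adjusted p = 0.0226) and Pdgfra at -2.05 ± 0.63 (adjusted p = 0.0271), while Smad3, at -0.80 ± 0.30, missed it (adjusted p = 0.0689). Epyc also passed, but its highest CC053 value was 0.0605 CPM against a median of 0.0843 CPM in the others, too low for a fold. The other genes past the threshold, all lower in CC053, were Col8a1, Col5a1, Col3a1 and Col11a1 of the collagens, P4ha1, P4ha2, P4ha3, Plod3 and Serpinh1, which modify or fold collagen chains, Mfap4, Tnc, Thbs3 and Emilin1 of the elastic fibre and matricellular list, and Pdgfrb and Lrrc15 of the fibroblast list. None of these list genes passed in edgeR once the leukocyte-rich libraries were left out, where 0.249% of all 20466 genes did, with 3 CC053 mice.

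The order of Lum and Dcn against Fap and Postn was the same in all 6 CC053 mice. Per kilobase of transcript, Dcn was highest, followed by Postn, Lum and Fap. This order was also the most frequent elsewhere, in 51 mice of other strains, and 36 others had Postn above Dcn with Lum and Fap below them. Dcn exceeded Postn in all 6 CC053 mice and in 72 others, and Lum exceeded Fap in all 6 and in nearly all others. Lum exceeded Postn in 0 of 6 CC053 mice and in 20 others. Lum held the same place in this order in CC053 as in most other mice.

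A balance was formed per mouse as the mean log2 CPM of Lum and Dcn minus that of Fap and Postn. It averaged 2.21 ± 0.69 in CC053 (SD, n = 6) and 1.799 ± 1.75 in the other strains (SD), a difference smaller than the spread among mice. CC053 mice lay between 1.63 and 3.54, well inside the range of -2.88 to 7.56 of the others. Within CC053 Dcn exceeded Lum by 2.56 to 6.92 log2 units, with a mean of 4.44 ± 1.68 (SD). In the other strains together the mean was 2.15 ± 1.70 (SD). A wide gap was not particular to CC053, since the mean was 4.66 in CC040 (n = 4) and 3.35 in CC044 (n = 7).

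The mice at the ends of the balance were picked by these 4 genes, so their opposite levels of them follow from the choice. Rogan-E3, with the lowest balance, had 8126 CPM of Postn and 32.9 CPM of Fap beside 82.6 CPM of Dcn and 60.005 CPM of Lum. TAS-J2, with the highest, had 129 CPM of Postn and 5.66 CPM of Fap beside 10263 CPM of Dcn and 2580 CPM of Lum. CC046-J5 resembled TAS-J2, with 95 CPM of Postn and 9020 CPM of Dcn. Thbs2, which is not part of the balance, was at 3403 CPM in Rogan-E3 and 39.6 CPM in TAS-J2, and Lox was at 999 and 2618 CPM.

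**Figure D2:**
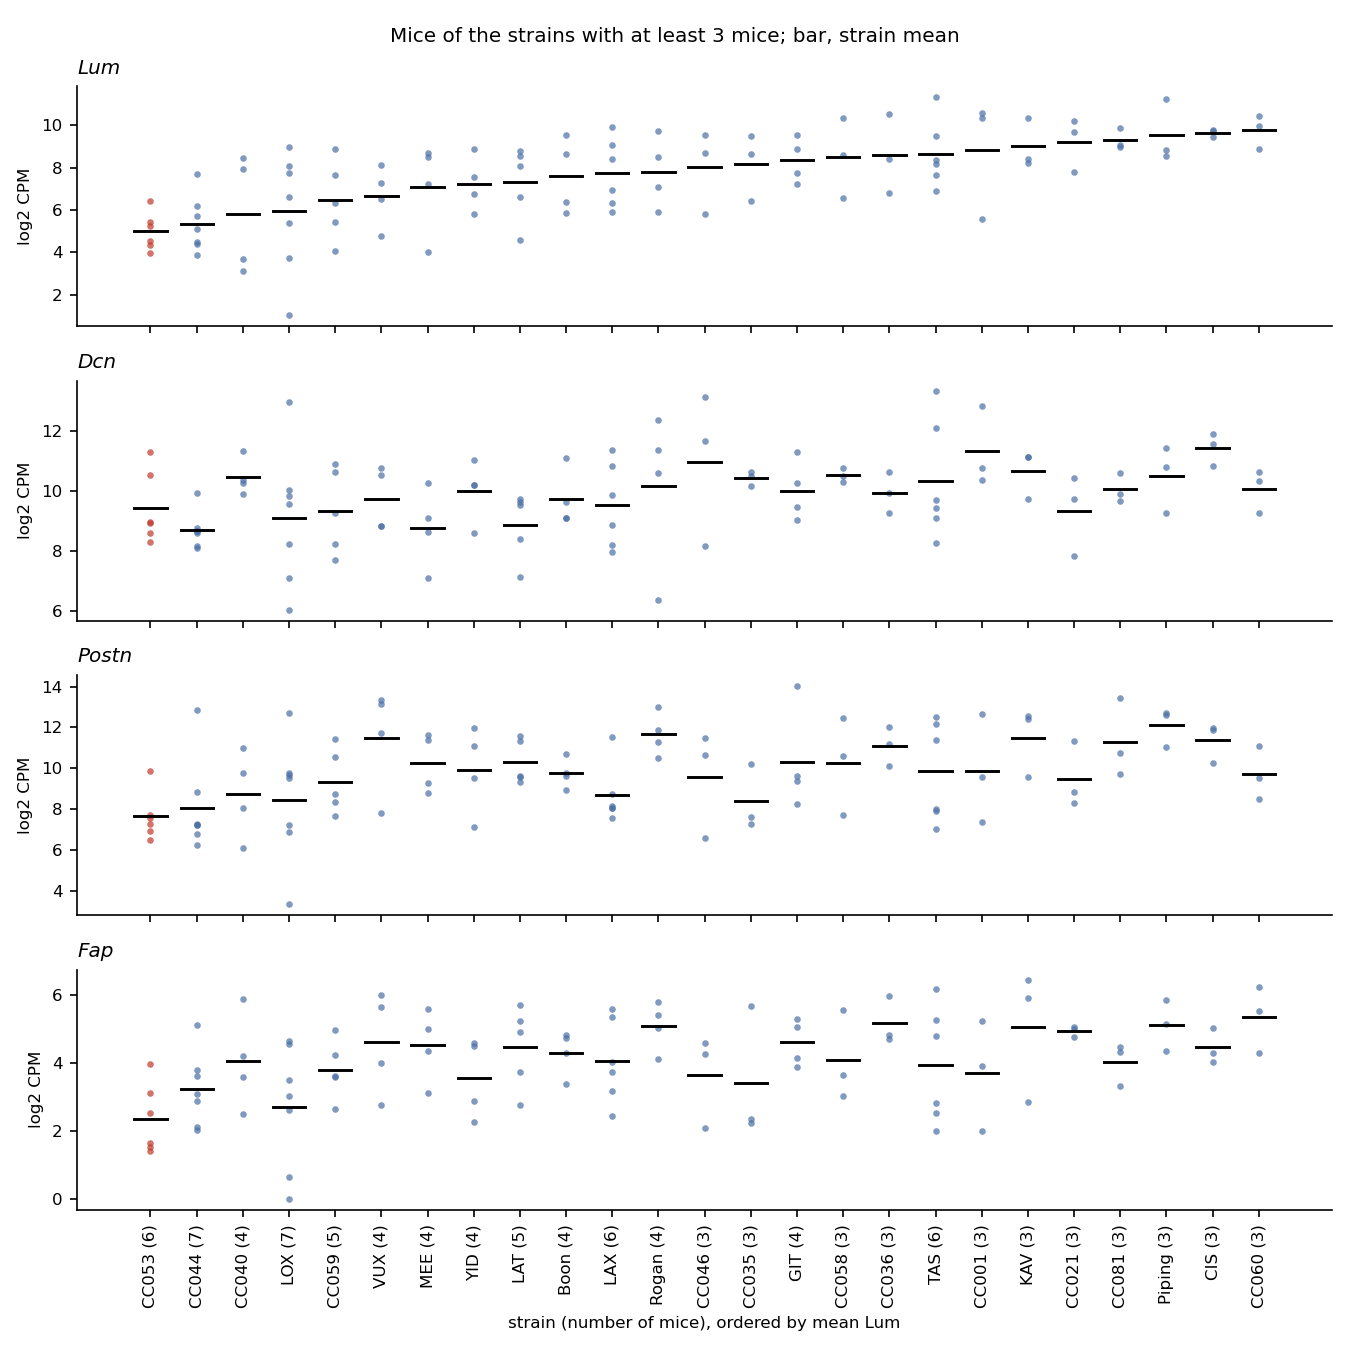
Log2 CPM of Lum, Dcn, Postn and Fap in each mouse of the 25 strains with at least 3 mice, ordered by mean Lum, with CC053 in red and a bar at each strain mean. Strain means of Lum run from 4.997 in CC053 to 9.75 in CC060, and those of Dcn follow another order, from 8.70 in CC044 to 11.44 in CIS.

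Lum, Bgn, Loxl2 and Thbs2 differed among strains and the other 6 did not pass. The test includes the CC053 mice, whose low levels were known when the genes were chosen. Without CC053 only Lum passed (edgeR adjusted p = 0.0354), beside 65.6% of all 20591 genes tested. In edgeR's quasi-likelihood F-test over the 25 strains that gave 3 or more mice, Lum had the lowest p (adjusted p = 0.00309), followed by Bgn (adjusted p = 0.0130), Loxl2 (adjusted p = 0.0201) and Thbs2 (adjusted p = 0.0270), that is 4 of 10, beside 69% of all 20687 genes tested. Dcn (adjusted p = 0.0683), Fbn1 (adjusted p = 0.0734), Fap (adjusted p = 0.121), Sparc (adjusted p = 0.125), Postn (adjusted p = 0.170) and Lox (adjusted p = 0.463) did not pass. Lum had the largest spread of strain means, 1.37 log2 units, with 45.8% of its variance between strains, and Dcn the smallest share, 26.5%, beside a median of 37.1% over 12816 genes. Bgn (42.7%), Loxl2 (39.8%), Sparc (39.02%), Thbs2 (38.8%) and Fbn1 (37.1%) lay near or above that median.

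CC060 and CIS had the highest and CC053 the lowest mean Lum of the 25 strains. They were picked by Lum, so the lack of overlap between their mice follows at least in part from the choice. CC060 had 463, 991 and 1394 CPM of Lum in its 3 mice and CIS 693, 842 and 878 CPM, while the highest CC053 mouse had 84.5 CPM. CC044, next to CC053 from below for Lum (5.35 ± 1.30 log2 CPM, SD, n = 7), was also second lowest for 7 more members and lowest for Dcn, and it held 11 leukocyte-rich libraries. When all such libraries were left out, 0 of the 10 members differed among strains in edgeR's test, beside 54.5% of 20263 genes, with adjusted p of 0.0909 for Lum and 0.0597 for Loxl2.

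Lum was also the member that set apart the 8 strains in which every mouse had at least 2 CPM of the kidney gene Umod (CC001, CC021, CC036, CC058, CC081, GIT, LAX and Piping), a grouping made after the values were seen. It averaged 8.64 ± 1.54 log2 CPM in their 28 mice and 7.27 ± 2.11 in the 91 others (SD), a difference of 1.37, with 0.57 for Postn as the next largest and -0.19 for Thbs2 as the lowest. Among these 8 strains Lum did not pass the strain test (edgeR adjusted p = 0.845), where 12.8% of all genes passed over 28 mice. Without them it did (edgeR adjusted p = 0.00447), where 57.7% of all genes passed over 75 mice. Those 75 include the CC053 mice, whose low Lum was known when the genes were chosen. The 2 tests differ in size, so they do not show that Lum behaves otherwise in the 8 strains. The part of kidney RNA in this was not tested.

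Among the 6 lists 65 genes differed by strain, beside the 69% of all 20687 genes tested, namely 16 of 20 fibroblast markers, 9 of 12 other proteoglycans, 12 of 20 collagen-processing genes, 12 of 18 genes of the growth factor pathway, 11 of 22 elastic fibre and matricellular genes and 5 of 15 collagens. The genes of lowest p in each list were Wnt2, a secreted signal (adjusted p = 5.4e-11), and Tcf21, a fibroblast transcription factor (adjusted p = 1.0e-07), among the fibroblast markers, Itgb6, an integrin that activates the growth factor (adjusted p = 8.1e-09), and Itgav (adjusted p = 0.000654) in its pathway, and Kera (adjusted p = 9.1e-09) and Omd (adjusted p = 1.0e-05) among the small proteoglycans. Mfap5 (adjusted p = 4.9e-05), Fbln1 (adjusted p = 0.000722), Col14a1 (adjusted p = 5.4e-05), Col5a3 (adjusted p = 7.3e-05), Adamts2 (adjusted p = 0.00109) and Plod1 (adjusted p = 0.00118) led the other lists. Col1a1, the main fibrillar collagen, passed narrowly (adjusted p = 0.0217).

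None of the 10 genes passed the test between survival classes over all 119 mice. Postn came nearest, with 87.9, 849 and 16765 CPM in the 36 mice below the median survival (lowest, median, highest), against 9.996, 776 and 11068 CPM in the 83 above it. Its log2 fold change, below over above, was 0.57 ± 0.37 (edgeR quasi-likelihood adjusted p = 0.743). Lum had medians of 199 CPM below and 269 CPM above (log2 fold change 0.03 ± 0.36, adjusted p = 0.994) and Dcn of 763 CPM below and 998 CPM above (-0.08 ± 0.27, adjusted p = 0.978). The other 7 had fold changes of -0.12 to 0.23, and no member had an unadjusted p under 0.05. Of all 17091 genes 1.56% passed in edgeR, and 0 members passed in limma-voom or DESeq2 as well. Without the leukocyte-rich libraries 1.22% of all genes and 0 members passed in edgeR.

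Within strains the fold change of Postn was larger but did not pass. With strain as a term, over 57 mice of the 13 strains with both classes, its log2 fold change was 1.70 ± 0.57 (edgeR unadjusted p = 0.00484, adjusted p = 0.402), and that of Loxl2 was 0.93 ± 0.33 (unadjusted p = 0.00779, adjusted p = 0.402). Fbn1, Sparc, Thbs2 and Lox were between 0.70 and 0.75, Bgn at 0.49, Fap at 0.42, Lum at 0.00 and Dcn at -0.49. Of all 16481 genes 0% passed in edgeR, although 1882 had an unadjusted p under 0.05, Postn, Loxl2, Sparc and Fbn1 among them, and limma-voom called 0. DESeq2 called 65 genes and 1 member, Postn (log2 fold change 1.69 ± 0.44, adjusted p = 0.0421).

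Postn was higher in the mean of the below-median mice in 11 of the 13 strains, and Loxl2 and Bgn in 12 each. In VIT, with 1 mouse in each class, Postn was at 12.66 log2 CPM below and 6.20 above the median, the widest gap. In GIT it averaged 11.71 in 2 mice below and 8.93 in 2 above, and in LAX 10.15 in 2 and 7.95 in 4. CC053 and LAT went the other way, at 7.03 in 2 mice below against 7.95 in 4 above, and at 9.60 in 2 against 10.75 in 3. Dcn was higher below the median in only 4 strains, with a median difference of -1.22, and Lum in 6. Without the leukocyte-rich libraries the fold change of Postn was 1.36 ± 0.62 (adjusted p = 0.448), and without the 8 strains with Umod it was 0.98 ± 0.72 (adjusted p = 0.792).

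**Figure D3:**
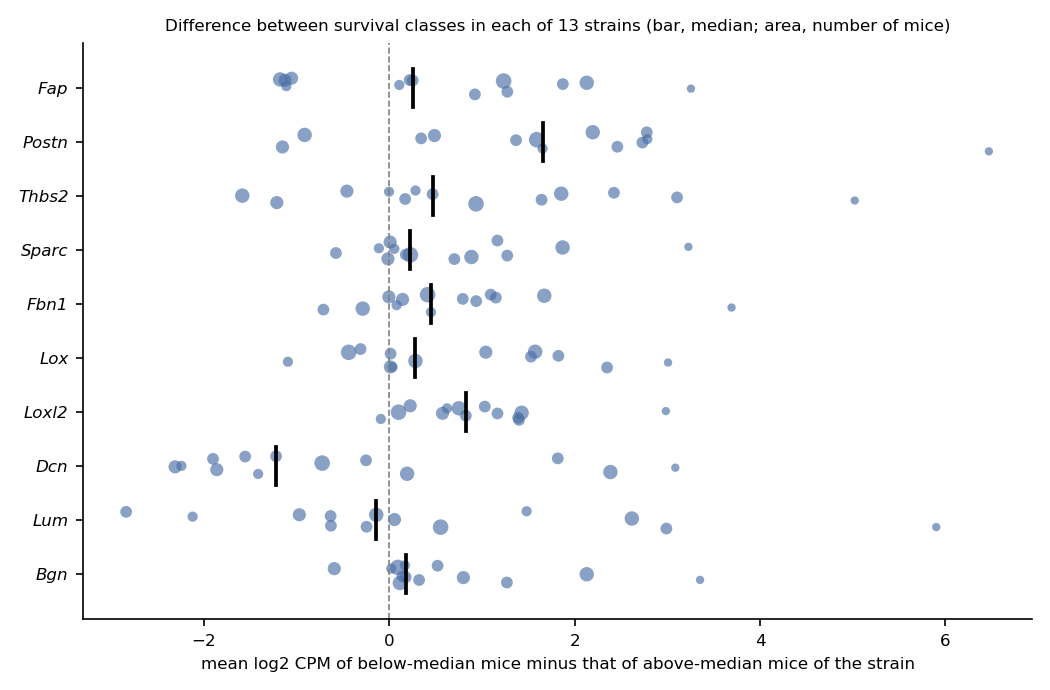
Difference in mean log2 CPM, below-median minus above-median mice, in each of the 13 strains that hold both classes; the bar is the median and the area of a point grows with the number of mice. The points of Postn reach from -1.15 to 6.47 with a median of 1.65, and most of those of Dcn lie left of 0.

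Whether that difference varied from strain to strain was tested over 37 mice, from strains that gave 2 or more to both classes. No gene passed in edgeR or in limma-voom, with 1859 of 19912 genes at an unadjusted p under 0.05 in edgeR, and Dcn was the lowest of the members (unadjusted p = 0.00105, adjusted p = 0.323). On simulated counts this test recovered 0% of the genes changed by 1 or by 2 log2 units in the below-median mice of 1 strain only, CC044. Differences that vary over several strains were not simulated.

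Of the other matrix genes in the lists 1 passed between the classes over all mice, Kera, the gene of keratocan next to Lum. Its log2 fold change was 2.43 ± 0.58 (adjusted p = 0.00751), yet its medians were 0.421 CPM below and 0.589 CPM above the median survival, and its highest value, 557 CPM, was in a below-median mouse of the strain TAS. Without TAS the fold change was 0.80 ± 0.60 (adjusted p = 0.864), and limma-voom gave -0.08 ± 0.53. Collagens and fibronectin had a median log2 fold change of 0.07 over all mice, with 12 of 15 above 0, but 5 of 15 without the libraries of highest number (median -0.068), 5 of 15 without the strains with Umod (median -0.059) and 8 of 15 with 1 tumour per mouse. It was 0.83 within strains, with 14 of 15 above 0 and none past the threshold; the medians of all genes tested were -0.02 and -0.01.

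Tumours of the same mouse differed less than mice of a strain did. In 35 mice with 83 tumours the SD of log2 CPM among tumours of a mouse was 0.79 (Bgn) to 1.36 (Postn), and among mice of a strain 0.96 (Bgn) to 1.95 (Postn), beside medians of 0.39 and 0.57 over 12816 genes. All 10 lay above the median gene at both levels.

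Some pairs of tumours were opposites. In Rogan-C3 tumour 1 had 6886 CPM of Postn, 74.5 CPM of Fap and 789 CPM of Dcn, and tumour 2 had 155.5, 5.04 and 4922 CPM, so Dcn was high where Postn was low. In LOX-D1 it was Dcn that differed most, at 558 CPM in tumour 1 and 59.6 CPM in tumour 2, while Fbn1 (295 and 399 CPM) and Loxl2 (600.4 and 594 CPM) hardly did. In CC053-A1 tumour 1 had 1047 CPM of Lox and 5639 CPM of Col1a1, and tumour 2, with 1360 CPM of Ptprc, had 20.4 and 159.3 CPM. Lum was alike in those 2 tumours, at 49.7 and 40.1 CPM. The 6 tumours of CC074-B3 kept Lum between 801 and 3006 CPM while Postn ran from 208.9 to 3607 CPM.

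Across the 119 mice the members rose and fell together, with Dcn apart. The 36 pairs without Dcn had Pearson r between 0.33 and 0.855 (median 0.67), and the 9 pairs with Dcn between 0.05 and 0.53 (median 0.28). The mice share library depth and composition, so these values describe the samples. Sparc and Loxl2 were the closest pair (r = 0.855, Spearman rho = 0.819, permutation p = 1e-05 each, the smallest that 100000 permutations can give, adjusted 1.4e-05), with r = 0.840 without the 2 mice farthest from the median of Sparc. Fap and Postn followed each other (r = 0.691, rho = 0.673, adjusted permutation p = 1.4e-05 each, r = 0.669 without 2 mice). Of 45 pairs 42 passed by Pearson's r and 41 by Spearman's rho after adjustment over the 45. The permutations took no account of strain, and they included the CC053 mice, whose low levels were known when the genes were chosen. How many pairs of other genes would pass was not tested. Without CC053 the 36 pairs had r between 0.280 and 0.841 (median 0.646) and the 9 pairs of Dcn between 0.0192 and 0.553 (median 0.251).

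Dcn and Postn, both made by fibroblasts, had no detectable relation (r = 0.0464, rho = 0.0476, adjusted permutation p = 0.619 and 0.608, r = -0.0179 without the 2 mice farthest in Postn). Dcn followed its neighbour Lum best (r = 0.533, rho = 0.531, adjusted permutation p = 1.4e-05 each, r = 0.491 without 2 mice). Centred on the strain mean, Dcn and Lum had r = 0.533 over the strains of 2 or more mice and Dcn and Postn -0.107. Within the 16 mice whose libraries carry the highest numbers in the labels, r was 0.570 for Dcn and Lum, 0.618 for Fap and Postn and 0.888 for Sparc and Loxl2, and in the other mice it was 0.515, 0.720 and 0.850 for the same pairs. Without the leukocyte-rich libraries the 36 pairs had a median r of 0.511 and the 9 pairs of Dcn 0.0551.

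**Figure D4:**
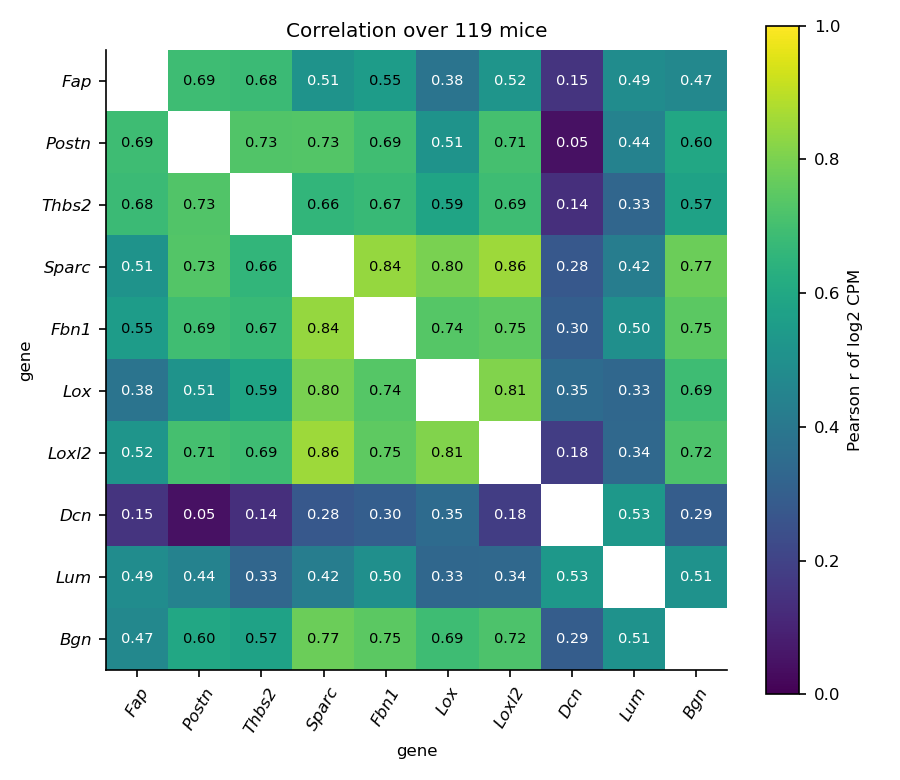
Pearson r of log2 CPM over 119 mice for each pair of the 10 genes, printed in each cell and coloured from 0 to 1. The row of Dcn is darkest, from 0.05 with Postn to 0.53 with Lum, and Sparc with Loxl2 is the brightest pair at 0.855.

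The genes most like each of 4 members were looked up among 12352 other genes with a mean of at least 5 CPM, by Spearman rho over 119 mice. Postn was nearest to Col1a2 (rho = 0.801), Cd276 (0.798) and Col3a1 (0.797), and Fap to Dsel, an enzyme of dermatan sulfate synthesis (0.708), Col6a3 (0.661) and Zfp354c (0.659). Lum was nearest to Glt8d1 (0.604), Reck, a membrane-anchored inhibitor of metalloproteinases (0.600), and Gulp1 (0.580). Dcn was nearest to Efs (0.669), Pmp22, known from myelin (0.647), and Zdhhc17, a palmitoyltransferase (0.627).

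Genes on its own chromosome were frequent among those most like Dcn. Of the 100 genes of highest rho 28 were on chromosome 10, which held 4.77% of the 12361 genes compared, and they included Zdhhc17, Frs2, Hcfc2, Glt8d2, Ctdsp2 and Mon2 among the first 10. For Lum, on the same chromosome, the count was 8 of 100, for Bgn on the X chromosome 14, where 3.09% of the genes lay, and for the other 7 members 2 to 11. With values centred on the strain mean Bgn had 7 and Lum 3, without the leukocyte-rich libraries 19 and 7, without CC053 14 and 10, and without the strains with Umod 12 and 4. The count for Dcn was 28 with values centred on the strain mean, 26 without the leukocyte-rich libraries, 29 without CC053 and 32 without the strains with Umod. The 28 genes were spread along the chromosome, with 9 of them more than 20 Mb beyond Dcn and 3 more than 60 Mb before it.

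**Figure D5:**
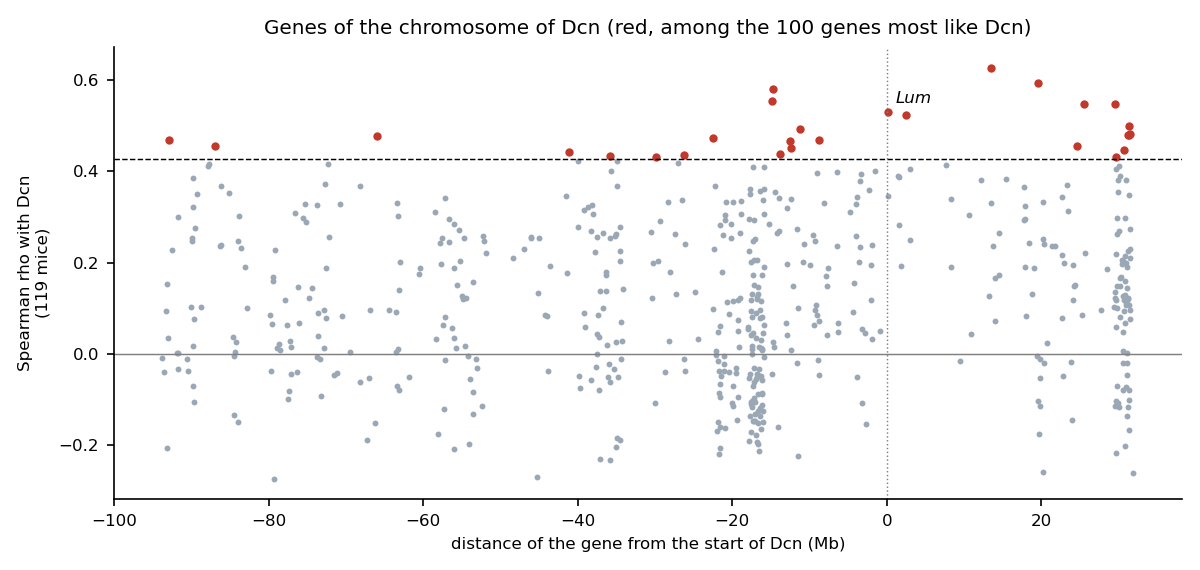
Spearman rho with Dcn over 119 mice for the 590 other genes of chromosome 10 with a mean of at least 5 CPM, by distance from the start of Dcn in Mb; the 28 red points are among the 100 genes most like Dcn, above the dashed line at 0.427. They lie on both sides of Dcn, and the median rho of all 590 is 0.116, against 0.00160 for genes of other chromosomes.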

How the data were processed

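Whole tumours of 119 mice were sequenced from strand-specific mRNA libraries, per the labels. The deposited values are estimated counts per gene, already whole numbers, and the submitters' processing notes name kallisto 0.46.1, GRCm38, DESeq2 and DESeq without saying which step each served; the annotation release is not given in the sources used here. All 10 members matched by Ensembl identifier and symbol. Of the 167 columns 165 matched 1 sample by title and 2, from 1 strain and class, matched only their group. A second deposited table, described as normalized, held the same values in all 3682183 cells that the tables share and was not used.

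The counts of the tumours of a mouse were summed, so that n is the number of mice. Levels are CPM after TMM scaling, and log2 CPM uses a prior count of 2. Every test is edgeR 4.0.16's quasi-likelihood F-test over all genes kept by filterByExpr, with Benjamini-Hochberg adjustment and a threshold of 0.05, and limma-voom and DESeq2 were run as alternatives. The fits were tested on simulated data, in which the survival contrast recovered 75% of genes changed by 1 log2 unit and the CC053 contrast 5% (56% at 2 log2 units). Correlations were tested with 100000 permutations and adjusted over 45 pairs. The most similar pair of libraries, from 1 mouse, had a chi-square per gene of 2.70, against a median of 134.3 over the nearest neighbours of all libraries. Both were kept as labelled, and whether they are separate tumours was not tested.

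The members, the gene lists and the comparison of CC053 were chosen with earlier results of these data known. The CC053 values of the members and of the lists are therefore a description. In the lists, genes named are those past the threshold and the 2 of lowest p, and for 4 members the 3 genes of highest rho. Gene positions come from GENCODE M21 and promoter sequences from RefSeq. The mice of a group are the replicates, and nothing in the labels says how litters or cages were shared. Alternatives changed the scaling, the filter, the tool, the tumours or libraries used and the strains included. The estimated counts carry an assignment uncertainty that is not given.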

Additional observations from a re-analysis of the deposited data

Results flagged for a closer look

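In 14 strains of 4 to 10 mice the distance of the highest or the lowest mouse from the others was checked for each gene by Dixon's criterion, and 5 of 140 groups stood out (3.57%), where chance alone picks out about 1 in 20. Postn did so 3 times. It was at 12.83 log2 CPM in CC044-F2, against 6.21 to 8.83 in the other CC044 mice, at 9.88 in CC053-A4, against 6.50 to 7.72 in the other CC053 mice, and at 11.54 in LAX-F2, against 7.56 to 8.75 in the other LAX mice. Dcn was at 9.95 log2 CPM in CC044-D3, against 8.09 to 8.77 in the rest of that strain. Bgn was at 9.18 log2 CPM in CC059-A2, low against 11.47 to 12.21 in the rest of that strain.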

How the results depend on the processing

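Over all mice 267 genes, 1.56% of those tested, passed between survival classes; the share was 3.43% (1108 genes) with no filter on low counts, 0% (0 genes) with limma-voom, 0.699% (120 genes) without libraries holding over 1% of another tissue, 0.616% of 17362 genes without strain TAS and 3.08% (517 genes) without the strains with Umod. Within strains 0 genes passed, and DESeq2 called 65 (0.394%), of which 1 was a member, Postn. Among strains 14283 genes passed, and 2408 (12.8%) within the strains with Umod alone. The 4 members that passed among strains, beside 69% of all genes, became 7 with limma-voom, beside 50.4%, and 7 without other tissue, beside 66.1%. They became 1 without CC053, beside 65.6% of all genes. They became 0 within the strains with Umod, beside 12.8%, and 0 without the leukocyte-rich libraries, beside 54.5%. For CC053 1723 genes (8.72%) passed, against 2794 (14.1%) with limma-voom, 3316 (16.8%) with DESeq2, 710 (3.61%) with 1 tumour per mouse, 51 (0.249%) without the leukocyte-rich libraries, and 320 to 2313 (1.60% to 11.5%) without each CC053 mouse in turn, lowest without CC053-H1. For the interaction 0 became 2 (0.0104%) without other tissue. The cause of these changes was not tested. Between survival classes the log2 fold change of Lum (0.03) was -0.087 with 1 tumour per mouse, -0.18 without TAS and -0.025 without the strains with Umod, and that of Fbn1 (-0.12) was 0.021 with limma-voom. Sparc (0.17) was at -0.017 without the strains with Umod, and without the libraries of highest number Thbs2 (0.15) was at -0.21 and Loxl2 (0.12) at -0.070. Bgn (0.02) was at -0.040 without TAS, -0.14 without the strains with Umod and -0.015 without the leukocyte-rich libraries. Within strains Lum (0.00) was at -0.013 with another scaling, -0.0053 with no filter, -0.024 without other tissue, -0.013 with DESeq2, -0.41 without the strains with Umod and -0.27 without the leukocyte-rich libraries. Dcn in CC053 (-0.63) was at 0.087 without the leukocyte-rich libraries. Of 170 values for the members in CC053 under the alternatives, 169 were below 0. These fits share mice, and low levels in CC053 helped to choose the members, so this count is a description and no test. The alternatives that use Umod or Ptprc were chosen after seeing the data. No paired analysis was possible because the labels give the groups no shared replicate numbers; strain entered as a term in the fit over 57 mice. Depth did not limit the members, since the lowest count of any member in a mouse was 18, but the 6 CC053 mice did.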
